A study of Homo sapiens with 9 samples.

Results

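The genes described here are 10 AP-1 and immediate early genes: FOS, FOSL1, FOSL2, JUN, JUNB, JUND, EGR1, IER2, IER3 and MYC. They were chosen by name, with earlier results of these data known. Each symbol stood in 1 row of the deposited table, so they are 10 of its 60605 genes. They were measured by RNA-seq in TE13, an established cell line of esophageal squamous cell carcinoma (ESCC) labelled as epithelial carcinoma cells. The labels set the groups of 3 libraries apart by the siRNA alone, which was either a control siRNA or one of a pair against PARylator, siRNA.1 and siRNA.2. PARylator is the long noncoding RNA LINC00885, and the comparisons ask which transcripts change when it is targeted. The siRNAs are numbered as the libraries were labelled, the interval between transfection and RNA extraction is not given in the sources used here, and a single cell line was measured.

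AP-1 is a dimer of a JUN protein with a FOS protein, or with another JUN protein, that binds TGACTCA and related sites in promoters and enhancers. FOS, JUN, EGR1, IER2, IER3 and MYC are immediate early genes: growth factors and stress switch them on within minutes through MAP kinases and the factors these phosphorylate, without new protein synthesis, and their mRNAs are short-lived. FOSL1 and FOSL2 rise later in the same response, FOSL1 in particular under sustained ERK signalling, and AP-1 is known in squamous epithelium for its part in keratinocyte growth and differentiation.

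Total counts on genes were 15337917 to 22559998 per library. Mitochondrial genes took 7.46% to 7.66% of the counts with control siRNA, 4.99% to 5.06% under siRNA.1 and 5.54% to 5.56% under siRNA.2. LINC00885 itself had 6, 7 and 12 counts with control siRNA, 4, 5 and 2 under siRNA.1 and 2, 0 and 4 under siRNA.2, too few to measure the knockdown closely. All 10 epithelial markers examined had at least 1 FPKM (counts scaled to exon length and library total) with control siRNA. They were chosen for squamous epithelium, though EPCAM and CDH1 are not specific to it. Their summed level was 1014 to 1035 FPKM there, 837 to 872 under siRNA.1 and 829 to 846 under siRNA.2. The largest falls in it were those of KRT5 (mean 142.5, 40.0 and 55.8 FPKM) and SFN (305, 180 and 182), while KRT6A, DSG3, PERP and EPCAM had higher means with both siRNAs than with control siRNA. Of 8 blood cell markers none reached 1 FPKM with control siRNA, and their sum went from 0.30 to 0.61 FPKM there to 3.01 to 3.58 under siRNA.1 and 3.24 to 3.97 under siRNA.2. LYZ made up most of it, while MS4A1 and HBB had 0 counts in every library. Of 6 fibroblast markers only COL1A1 reached 1 FPKM with control siRNA (mean 1.99). The fibroblast sum was 2.23 to 2.49 FPKM there, 1.46 to 1.64 under siRNA.1 and 1.5 to 1.72 under siRNA.2. None of 4 endothelial markers reached 1 FPKM with control siRNA. Their sum was 1.2 to 1.54 FPKM there, 0.63 to 0.89 under siRNA.1 and 0.42 to 0.55 under siRNA.2. The part of these marker changes in the results below was not tested.

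With control siRNA the 10 genes covered a wide range of levels. FOSL1 was the highest, at 123.9 ± 1.17 FPKM (mean ± SD, n = 3 here and below), above 99.1% of the 28065 genes with any signal. JUNB followed at 99.5 ± 2.81 FPKM. MYC stood at 45.1 ± 0.626 FPKM and IER3 at 42.4 ± 4.02, and the libraries of these neighbours overlapped. IER2 had 21.2 ± 0.378 FPKM and FOSL2 18.7 ± 1.11. JUN (14.6 ± 1.78 FPKM), EGR1 (13.6 ± 0.372) and JUND (12.8 ± 0.624) overlapped with one another as neighbours in this order. FOS was the lowest, at 0.473 ± 0.136 FPKM, above 46.5% of the genes with any signal. Of the FOS and JUN genes, FOSL1 and JUNB were thus the most abundant with control siRNA.

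**Figure D1:**
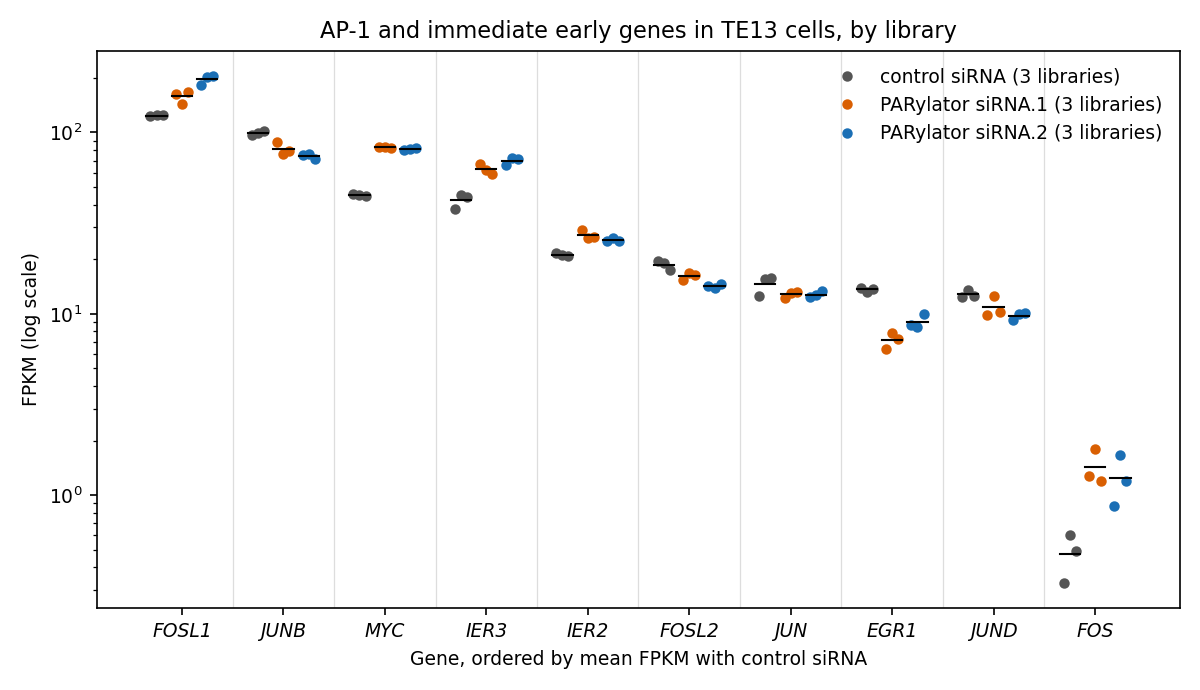
FPKM on a log axis of each of the 10 genes in the 9 libraries, 3 per siRNA, with genes ordered by their mean with control siRNA and short black lines at the mean of 3 libraries. FOS is the lowest gene in every group and rises from 0.473 to 1.42 and 1.25 FPKM, MYC rises from 45.1 to 82.8 and 80.7 FPKM, and EGR1 falls from 13.6 to 7.16 and 9.04 FPKM.

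Counts went into edgeR's quasi-likelihood test, 1 fit of the 3 groups, and an adjusted p (Benjamini-Hochberg over the 21395 genes that averaged 0.1 FPKM or more) under 0.05 was taken as a change. All 10 genes passed that filter and all 10 changed with each siRNA, 5 of them rising (FOS, FOSL1, IER2, IER3 and MYC) and 5 falling (FOSL2, JUN, JUNB, JUND and EGR1). The comparisons with control share the control libraries, so the agreement of their directions is not independent. Of all genes tested, 30.3% changed under siRNA.1, 15.0% up and 15.2% down, and 30.9% under siRNA.2, 15.8% up and 15.1% down. Among genes that averaged 1 FPKM or more over the 9 libraries, as the 10 genes do, the shares were 44.8% and 45.9%. FOS, at 0.473 FPKM with control siRNA, reached that average only through the siRNA libraries (means 1.42 and 1.25 FPKM). The libraries of siRNA.1 and control did not overlap for 8 of the 10 genes, against 37.7% of all genes, and those of siRNA.2 and control for 9, against 39.6%. For the 10 genes the median log2 fold change came to 0.05 and 0.03, near that of all genes (-0.00056 and 0.0040). Their median absolute log2 fold change was 0.34 and 0.52, against 0.30 and 0.31 over all genes tested. The latter include genes down to 0.1 FPKM, and this median was not taken for genes averaging 1 FPKM or more alone. In this fit only FOS changed by more than 1 on the log2 scale with either siRNA. In bulk RNA, fewer cells with a transcript and less of it per cell cannot be told apart.

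**Figure D2:**
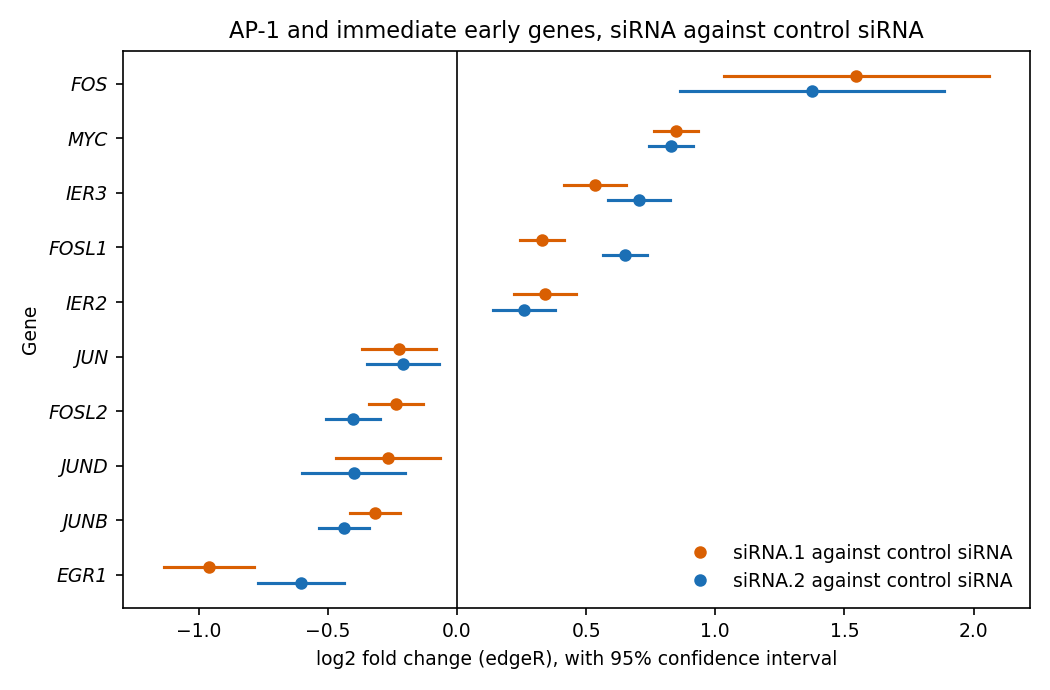
log2 fold change from edgeR (x axis) of each of the 10 genes (y axis) under siRNA.1 and siRNA.2 against control siRNA, 3 libraries per group, with lines for the 95% confidence interval. The genes split into 5 that rise and 5 that fall, and the intervals of FOSL1 for the 2 siRNAs, centred on 0.33 and 0.65, do not meet.

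Among the FOS subunits, FOS and FOSL1 rose and FOSL2 fell. FOS (chr14:75278826-75282230, plus strand; deposited coordinates, GRCh38, here and below), the founding subunit of the family, was at 0.33, 0.60 and 0.49 FPKM with control siRNA, 1.27, 1.80 and 1.20 under siRNA.1 and 0.87, 1.67 and 1.20 under siRNA.2, on 16 to 30, 67 to 88 and 55 to 102 counts. Every siRNA library lay above every control library, but libraries within a group differed widely. Its log2 fold change was 1.55 (standard error 0.26, edgeR adjusted p = 4.24e-08) under siRNA.1 and 1.37 (0.26, 1.23e-06) under siRNA.2, or 2.92-fold and 2.59-fold. All 13 other fits called both changes, at 0.71 to 1.59 and 0.60 to 1.38, the lowest with limma on log2(FPKM + 1), which shrinks the changes of low genes. It remained a gene of low level, above 1 FPKM in 5 of the 6 siRNA libraries.

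FOSL1 (FRA-1, chr11:65892049-65900573, minus strand), a subunit common in invasive carcinoma cells, was at 122.6, 124.3 and 124.9 FPKM with control siRNA, 163.9, 144.2 and 167.9 under siRNA.1 and 181.8, 201.8 and 204.5 under siRNA.2. The 3 groups did not overlap, and siRNA.2 was the highest. The log2 fold change was 0.33 (SE 0.04, edgeR adjusted p = 7.46e-13) under siRNA.1 and 0.65 (SE 0.04, adjusted p = 2.35e-49) under siRNA.2. The difference between the siRNAs, 0.32 (95% confidence interval 0.24 to 0.41, edgeR adjusted p = 5.79e-12), passed in all 13 other fits and with each library left out, with an adjusted p of at most 0.0223.

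FOSL2 (FRA-2, chr2:28392448-28417317, plus strand) was at 19.51, 19.06 and 17.40 FPKM with control siRNA, 15.34, 16.83 and 16.30 under siRNA.1 and 14.20, 13.86 and 14.55 under siRNA.2. All siRNA libraries were below all control libraries. Its log2 fold change was -0.23 (SE 0.05, edgeR adjusted p = 8.45e-05) under siRNA.1 and -0.40 (SE 0.05, adjusted p = 9.05e-13) under siRNA.2. The difference between the siRNAs was -0.17 (edgeR adjusted p = 0.0183), a call that was lost without replicate 2 or 3 of siRNA.1 or replicate 1 or 2 of siRNA.2 (adjusted p up to 0.0924) and with limma on log2 FPKM at each of 3 pseudocounts (0.0796 to 0.0846).

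The 3 JUN genes all fell, by modest amounts. JUNB (chr19:12791486-12793315, plus strand), which in many settings restrains JUN, was at 96.83, 99.28 and 102.4 FPKM with control siRNA, 88.69, 76.02 and 79.18 under siRNA.1 and 74.94, 76.48 and 71.07 under siRNA.2, with no overlap with control. Its log2 fold change was -0.32 (SE 0.05, edgeR adjusted p = 2.29e-09) under siRNA.1 and -0.44 (SE 0.05, adjusted p = 3.42e-17) under siRNA.2. Between the siRNAs it was -0.12 (edgeR adjusted p = 0.110), -0.17 (adjusted p = 0.0172) without replicate 2 of siRNA.1 and -0.05 (adjusted p = 0.714) without replicate 1 of siRNA.1. Exons of JUNB overlap those of HOOK2 on the opposite strand. HOOK2 had a mean count of 512 against 2755 of JUNB, with log2 fold changes of -0.28 and -0.33. Whether counting used the strand is not given in the sources used here, so reads of the shared stretch cannot be told apart.

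JUN (chr1:58776845-58784048, minus strand), the strongest activator of the family, was at 12.59, 15.47 and 15.85 FPKM with control siRNA, 12.16, 13.07 and 13.13 under siRNA.1 and 12.31, 12.67 and 13.33 under siRNA.2. Control replicate 1 lay within the range of the siRNA libraries, so the groups overlapped. The log2 fold change was -0.22 (SE 0.07, edgeR adjusted p = 0.00855) under siRNA.1 and -0.21 (SE 0.07, adjusted p = 0.0138) under siRNA.2. These calls rest on single libraries and were also lost with limma on log2 FPKM at each of 3 pseudocounts (adjusted p 0.140 to 0.152). Without control replicate 3 the adjusted p from edgeR was 0.147 and 0.196, without control replicate 2 it was 0.0752 and 0.102, and without replicate 1 of the siRNA in question it was 0.0558 and 0.0929.

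JUND (chr19:18279694-18281622, minus strand), the subunit usually present in resting cells, was at 12.44, 13.54 and 12.48 FPKM with control siRNA, 9.86, 12.51 and 10.24 under siRNA.1 and 9.27, 10.01 and 10.06 under siRNA.2. Replicate 2 of siRNA.1 reached the control range, while siRNA.2 stayed below it. The log2 fold change was -0.40 (SE 0.10, edgeR adjusted p = 5.02e-04) under siRNA.2. With siRNA.1 it was -0.27 (SE 0.10, adjusted p = 0.0320), and the call was lost in 6 of 13 other fits, DESeq2 among them (adjusted p = 0.0525), and without control replicate 2, siRNA.1 replicate 1 or siRNA.1 replicate 3 (edgeR adjusted p 0.135 to 0.183).

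The make-up of each family's transcript pool followed from these levels. FPKM are per exon length and can be summed over genes. The FOS family (FOS, FOSB, FOSL1 and FOSL2) summed to 143.6 ± 0.759 FPKM with control siRNA, 177.6 ± 11.7 under siRNA.1 and 212.9 ± 13.1 under siRNA.2, without overlap between groups. FOSL1 was 86.3% ± 0.833 of that sum with control siRNA, 89.3% ± 1.34 under siRNA.1 and 92.1% ± 0.161 under siRNA.2. The share of FOSL2 was 13.0%, 9.14% and 6.69%. The rise in FOSL1's share was 2.98 percentage points under siRNA.1 and 5.80 under siRNA.2, each with an exact two-sided permutation p of 0.1, the smallest that 3 libraries against 3 allow. As a share of raw counts, which are not per length, it rose by 7.13 and 13.7 points. FOS and FOSB each made up less than 1% of the mean sum in every group. The JUN family summed to 127 ± 4.59 FPKM with control siRNA, 105 ± 5.01 under siRNA.1 and 96.7 ± 2.36 under siRNA.2. JUNB held 78.4%, 77.4% and 76.7% of it and JUN 11.5%, 12.2% and 13.2%. The share of JUN differed from control by 0.713 percentage points under siRNA.1 (exact permutation p = 0.5) and 1.71 under siRNA.2 (exact permutation p = 0.1). Single libraries moved these values: the first was 0.127 without control replicate 1, 0.390 and 0.420 without replicate 2 or 3 of siRNA.1 and 1.33 without replicate 1 of siRNA.1, and the second was 1.12 without control replicate 1. As shares of raw counts they were 1.12 and 2.68. The FOS sum was thus higher in every siRNA library than in any control library, and the JUN sum lower.

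**Figure D3:**
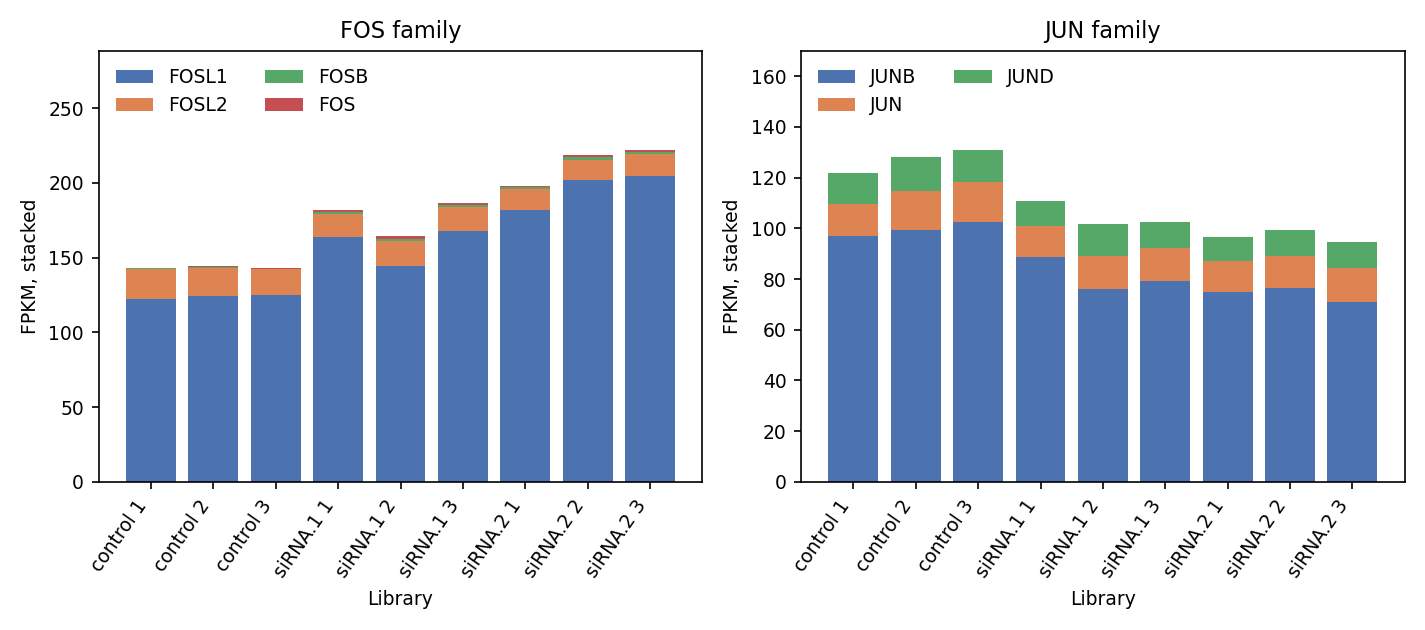
Stacked bars of FPKM in each of the 9 libraries for the FOS family (left, FOSL1, FOSL2, FOSB and FOS) and the JUN family (right, JUNB, JUN and JUND). The FOS sums are 143.2 to 144.5 with control siRNA, 164.4 to 186.5 under siRNA.1 and 197.8 to 221.8 under siRNA.2, with FOSL1 at a mean of 86.3%, 89.3% and 92.1% of them, and every JUN sum with an siRNA is below the 121.9 to 130.8 of the control libraries.

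Of the other immediate early genes, EGR1 fell and IER2, IER3 and MYC rose. EGR1 (chr5:138465479-138469303, plus strand), a zinc finger factor switched on by ERK, was at 13.95, 13.23 and 13.75 FPKM with control siRNA, 6.37, 7.86 and 7.25 under siRNA.1 and 8.66, 8.48 and 9.98 under siRNA.2. The 3 groups did not overlap, and siRNA.1 was the lowest. The log2 fold change was -0.96 (SE 0.09, edgeR adjusted p = 1.23e-25) under siRNA.1 and -0.60 (SE 0.08, adjusted p = 2.35e-11) under siRNA.2. The siRNAs differed by 0.36 (95% confidence interval 0.18 to 0.53, edgeR adjusted p = 0.00121), and by 0.27 (adjusted p = 0.0746) without replicate 3 of siRNA.2. With limma on log2 FPKM the adjusted p of this difference was 0.0502 and 0.0569 at pseudocounts of 0.1 and 1.

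MYC, the growth-promoting transcription factor, was at 45.58, 45.38 and 44.41 FPKM with control siRNA, 83.37, 83.37 and 81.59 under siRNA.1 and 79.70, 80.58 and 81.93 under siRNA.2. Each siRNA library was well above each control library, and the siRNAs overlapped. The log2 fold change was 0.85 (SE 0.04, edgeR adjusted p = 3.06e-83) and 0.83 (SE 0.04, adjusted p = 4.96e-80), or 1.80-fold and 1.78-fold. Between the siRNAs it was -0.02 with a 95% confidence interval of -0.10 to 0.06. Over all alternative settings and left-out libraries the change stayed within 0.84 to 0.88 under siRNA.1 and 0.81 to 0.85 under siRNA.2.

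IER3 (IEX-1, chr6:30743199-30744548, minus strand), a regulator of apoptosis and of ERK signalling, was at 37.81, 45.24 and 44.20 FPKM with control siRNA, 66.56, 62.20 and 59.23 under siRNA.1 and 65.81, 71.86 and 71.32 under siRNA.2. It rose without overlap by 0.53 (SE 0.06, edgeR adjusted p = 1.87e-16) and 0.70 (SE 0.06, adjusted p = 4.64e-29). The difference between the siRNAs, 0.17 (edgeR adjusted p = 0.0366), overlapped between libraries and passed in only 2 of 13 other settings (adjusted p up to 0.300), and was lost without replicate 2 or 3 of siRNA.1 or of siRNA.2. IER2 (chr19:13150411-13154911, plus strand), a nuclear protein of the early growth response, was at 21.58, 21.00 and 20.87 FPKM with control siRNA, 29.07, 26.24 and 26.51 under siRNA.1 and 25.15, 26.12 and 25.25 under siRNA.2. It rose by 0.34 (SE 0.06, edgeR adjusted p = 3.74e-07) and 0.26 (SE 0.06, adjusted p = 1.53e-04), again without overlap.

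Between the siRNAs, 4 of the 10 genes differed, against 12.2% of all genes tested and 19.3% of those averaging 1 FPKM or more. FOSL1, EGR1 and IER3 were higher under siRNA.2 and FOSL2 was lower. For the other 6 the 95% confidence intervals of the difference were -0.62 to 0.27 for FOS, -0.13 to 0.16 for JUN, -0.22 to -0.02 for JUNB, -0.33 to 0.07 for JUND, -0.20 to 0.04 for IER2 and -0.10 to 0.06 for MYC.

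FOS and EGR1, textbook partners in the serum response, went in opposite directions, and JUN, which AP-1 itself can activate, fell, so the proximal promoters of these genes are shown. RefSeq's table of promoters (GRCh38.p14) held 7 of the 10 genes. The sequences below are the 250 bases before the RefSeq start, read 5′ to 3′ on the gene's strand. Capitals mark matches to a CArG box (the binding site of SRF), the cAMP response element half-site TGACGT on either strand, or TGACATCA, a variant AP-1 site.
FOS, chr14:75278578-75278827, plus strand: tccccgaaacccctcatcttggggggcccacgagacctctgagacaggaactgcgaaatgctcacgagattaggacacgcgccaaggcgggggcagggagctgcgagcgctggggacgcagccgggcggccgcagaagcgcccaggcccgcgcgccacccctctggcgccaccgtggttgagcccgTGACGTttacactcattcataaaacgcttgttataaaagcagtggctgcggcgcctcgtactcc
EGR1, chr5:138465229-138465478, plus strand: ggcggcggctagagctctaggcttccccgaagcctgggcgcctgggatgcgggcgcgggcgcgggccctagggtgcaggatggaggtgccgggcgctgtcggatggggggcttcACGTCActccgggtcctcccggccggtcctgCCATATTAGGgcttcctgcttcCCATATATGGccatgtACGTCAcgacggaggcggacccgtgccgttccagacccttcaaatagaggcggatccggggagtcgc
JUN, chr1:58784048-58784297, minus strand: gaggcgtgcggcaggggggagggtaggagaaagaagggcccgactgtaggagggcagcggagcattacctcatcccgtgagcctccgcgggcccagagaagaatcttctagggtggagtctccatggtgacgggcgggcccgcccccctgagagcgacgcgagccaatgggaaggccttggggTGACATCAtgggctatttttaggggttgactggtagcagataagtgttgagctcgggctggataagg

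EGR1 held 2 CArG boxes, at bases -105 to -96 and -83 to -74 from the start, while 1.29% of all 35116 promoters in the table held any within the 300-base window (250 before to 50 after the start). TGACGT on either strand was present in 4 of the 7 promoters (FOS at -64 to -59, EGR1, FOSL2 and JUND), against 7.98% of all promoters. TGACATCA was found in JUN alone, at -67 to -60, against 2.61%. The AP-1 consensus TGACTCA was in FOSL2 alone, just past the start, against 4.95%, and the full element TGACGTCA, which contains TGACGT, in JUND alone, against 1.85%. These matches describe the letters of a short window, and sites farther upstream were not searched, for FOS or any other gene. The CArG boxes found in EGR1 therefore do not show that FOS has none. The half-site was shared by FOS, which rose, and by EGR1, FOSL2 and JUND, which fell. Whether any of these sites bears on the changes was not tested.

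The transcripts themselves have the compact structure known for early response genes. In GENCODE release 44 the canonical transcripts of the 10 genes had a median of 2 exons, against 9 over 13601 protein-coding genes tested with an annotated 3′ UTR. JUN, JUNB and JUND have a single exon, as do 2.50% of those genes. The pentamer ATTTA, the core of AU-rich elements that mark short-lived mRNAs, occurred in the 3′ UTR of 9 of the 10 genes, all but IER2, against 71.2% of genes. It occurred 5 times in FOS, 9 times in the longer 3′ UTR of FOSL2 and 6 times each in IER3 and MYC. JUN held 3, JUNB 2, and EGR1, FOSL1 and JUND 1 each. The median was 2.5 for the 10 genes, near the 2 of all these protein-coding genes. Per kilobase of 3′ UTR it was 2.092 against 1.625. The nonamer TTATTTATT was present in FOS, which rose, and FOSL2, which fell, against 9.27% of genes. A part of these elements in the changes was not tested.

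To place the 10 genes in their pathway, 8 lists of 170 related genes were examined, of which 162 passed the filter. The lists, too, were chosen with earlier results of these data known. With siRNA.1, 104 of the 162 genes changed (71 up, 33 down) and under siRNA.2, 110 (74 up, 36 down). That is 64.2% and 67.9% of those tested, to be read against the shares of all genes given above. The other AP-1 family genes, partners that can pair with FOS or JUN proteins, were tested for 12 genes, of which 7 rose and 1 fell under siRNA.1 and 5 rose and 0 fell under siRNA.2, with median log2 fold changes of 0.69 and 0.26. These were 66.7% and 41.7% of those tested, against 44.8% and 45.9% of all genes averaging 1 FPKM or more. ATF3, a stress-induced repressor and activator, went from 5.17 ± 0.735 FPKM to 13.0 ± 0.652 and 10.4 ± 0.582, log2 fold changes of 1.31 and 1.00 (edgeR adjusted p = 1.06e-52 and 3.73e-31). FOSB, at 0.583 ± 0.170 FPKM with control siRNA, rose by 1.24 and 1.27 (edgeR adjusted p = 8.91e-10 and 1.55e-10) to 1.40 ± 0.210 and 1.40 ± 0.372 FPKM, and by 0.60 and 0.59 in limma on log2(FPKM + 1). No gene of this list fell with both siRNAs.

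Of 27 other immediate early genes, 14 rose and 3 fell under siRNA.1, and 13 rose and 6 fell under siRNA.2, with a median log2 fold change of 0.39 and 0.32. Changes were thus called for 63.0% and 70.4% of this list, against 44.8% and 45.9% of all genes averaging 1 FPKM or more. EGR2, the relative of EGR1, rose by 1.03 and 1.37 (edgeR adjusted p = 0.00579 and 6.25e-05) from 0.307 ± 0.0907 FPKM. The first of these calls was lost without control replicate 3 (adjusted p = 0.0690) or siRNA.1 replicate 3 (0.159) and with limma on log2 FPKM at each of 3 pseudocounts (0.0532 to 0.0832), and on log2(FPKM + 1) the changes were 0.30 and 0.45. ARC, best known as an activity-induced gene of neurons, rose by 0.56 and 1.11 (edgeR adjusted p = 0.00268 and 1.95e-11), the first lost without control replicate 3 (0.0816) and with limma on log2(FPKM + 1) (0.0569). Among those that fell, MCL1, an anti-apoptotic gene, was at 96.3 ± 0.981 FPKM with control siRNA, 70.1 ± 0.468 under siRNA.1 and 90.0 ± 1.98 under siRNA.2. Its log2 fold change was -0.49 and -0.11, the second lost without control replicate 1 (edgeR adjusted p = 0.0585) or siRNA.2 replicate 1 (0.140) and with no filter on low values (0.0720). IER5L fell by 0.39 and 0.47 on the log2 scale, the first lost without control replicate 2 or 3 or siRNA.1 replicate 3 (edgeR adjusted p up to 0.163) and with limma on log2 FPKM (up to 0.111).

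Genes on the list of MAPK phosphatases and ERK feedback genes, which also holds the transcription factors ETV1, ETV4 and ETV5, rose for the most part. Of 17 MAPK phosphatases and ERK feedback genes, 10 rose and 1 fell under siRNA.1, and 12 rose and 3 fell under siRNA.2, with medians of 0.54 and 0.45. That is 64.7% and 88.2% of those tested, against 44.8% and 45.9% of all genes averaging 1 FPKM or more. DUSP1, a nuclear phosphatase of MAP kinases, went from 3.13 ± 0.544 FPKM to 10.8 ± 0.915 and 6.26 ± 0.736, log2 fold changes of 1.76 and 1.00 (edgeR adjusted p = 3.43e-38 and 4.40e-12). DUSP4, another nuclear phosphatase, went from 5.05 ± 0.300 FPKM to 15.1 ± 0.416 and 12.1 ± 0.540, log2 fold changes of 1.56 and 1.25. ERRFI1, an inhibitor of the EGF receptor, fell by 0.38 and 0.50 on the log2 scale.

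The MAPK kinases and the transcription factors upstream of FOS, JUN and EGR1 leaned the other way. Of 34, 2 rose and 16 fell under siRNA.1, and 2 rose and 18 fell under siRNA.2, with medians of -0.17 and -0.16. The share that changed, 52.9% and 58.8%, compares with 44.8% and 45.9% of all genes averaging 1 FPKM or more. MAP2K6, an activator of p38, went from 0.713 ± 0.0351 FPKM to 0.190 ± 0.0173 and 0.227 ± 0.0404, log2 fold changes of -1.94 and -1.68 (edgeR adjusted p = 5.27e-24 and 5.85e-20). RPS6KA5 (MSK1), a kinase that acts on chromatin and CREB, fell by 0.56 and 0.60 on the log2 scale, both calls lost with limma on log2 FPKM at each of 3 pseudocounts (adjusted p 0.148 to 0.208). BRAF rose by 0.59 and 0.37 (edgeR adjusted p = 4.53e-13 and 1.25e-05), the second lost with limma on log2(FPKM + 1), where it was 0.24 (adjusted p = 0.0520). That setting, which shrinks the changes of low genes, also gave -0.53 and -0.48 for MAP2K6 and -0.15 and -0.16 for RPS6KA5.

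**Figure D4:**
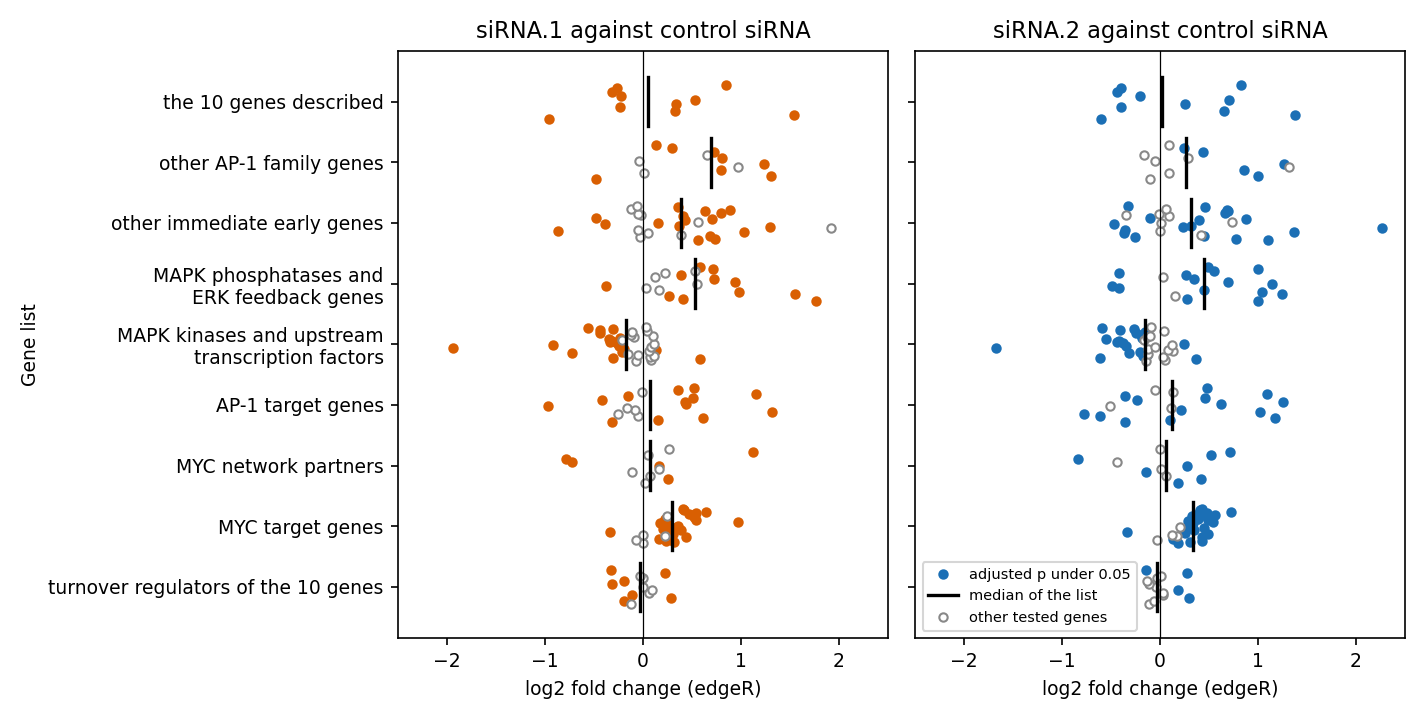
log2 fold change from edgeR of every tested gene of each list (rows) under siRNA.1 (left) and siRNA.2 (right) against control siRNA; filled points have an adjusted p under 0.05, open points do not, and black lines are the medians. The feedback genes have medians of 0.54 and 0.45, the MYC targets of 0.30 and 0.34, and the upstream kinases and factors of -0.17 and -0.16.

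Described targets of the factors were examined next. Of 18 AP-1 target genes, 9 rose and 4 fell under siRNA.1 and 9 rose and 5 fell under siRNA.2, with medians of 0.07 and 0.13. Together 72.2% and 77.8% of them changed, against 44.8% and 45.9% of all genes averaging 1 FPKM or more. IL6, a cytokine, went from 19.2 ± 3.11 FPKM to 48.9 ± 2.54 and 39.2 ± 1.52, log2 fold changes of 1.32 and 1.02 (edgeR adjusted p = 8.07e-91 and 7.56e-54). SPRR1B, a cornified envelope gene of squamous cells, rose by 1.16 and 1.09. CCND1 (cyclin D1) fell by 0.32 and 0.35 on the log2 scale and PLAU (urokinase) by 0.42 and 0.24. The targets moved in both directions, and a link to the subunits was not tested.

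Of 30 MYC target genes, mostly of ribosome biogenesis, 24 rose and 1 fell under siRNA.1, and 25 rose and 1 fell under siRNA.2, with medians of 0.30 and 0.34. As shares of this list that is 83.3% and 86.7%, against 44.8% and 45.9% of all genes averaging 1 FPKM or more. ODC1, the first enzyme of polyamine synthesis, went from 30.1 ± 1.80 FPKM to 60.0 ± 1.57 and 44.2 ± 1.82, log2 fold changes of 0.97 and 0.54 (edgeR adjusted p = 6.83e-70 and 2.97e-22). SRM (spermidine synthase) rose by 0.65 and 0.73. LDHA (lactate dehydrogenase A) was the gene that fell, by 0.34 and 0.33 on the log2 scale. Of 11 MYC network partners, 3 rose and 2 fell under siRNA.1, and 5 rose and 2 fell under siRNA.2. These were 45.5% and 63.6% of those tested, against 44.8% and 45.9% of all genes averaging 1 FPKM or more. MGA, a MAX partner, rose by 0.25 and 0.42, the first lost with limma on log2 FPKM at each of 3 pseudocounts (adjusted p 0.0830 to 0.0890). MYCL rose by 1.13 and 0.71 and MXD4, an antagonist of MYC, fell by 0.79 and 0.84 on the log2 scale, each from under 0.5 FPKM. The call of MYCL under siRNA.2 (edgeR adjusted p = 0.0445) was lost without control replicate 1 or 3 or any 1 of the siRNA.2 libraries (adjusted p up to 0.276), and with DESeq2, limma on log2 FPKM, limma-voom, no filter on low values or only the groups compared (up to 0.128). Those of MXD4 (0.0322 and 0.0173) were lost without control replicate 1 or 2 or replicate 2 of the siRNA in question (up to 0.179 and 0.123) and with limma on log2 FPKM (up to 0.166 and 0.130), the first also with DESeq2, limma-voom or no filter. On log2(FPKM + 1) the changes were 0.38 and 0.21 for MYCL and -0.20 and -0.22 for MXD4.

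Of 13 genes that control the turnover of these mRNAs or proteins, 2 rose and 5 fell under siRNA.1, and 3 rose and 1 fell under siRNA.2, with medians of -0.03 and -0.03. The share that changed was 53.8% and 30.8%. Of all genes tested it was 30.3% and 30.9%, and of those averaging 1 FPKM or more 44.8% and 45.9%, so this list lay near the background. FBXW7, the ubiquitin ligase subunit that marks MYC and JUN for degradation, rose by 0.29 and 0.30 (edgeR adjusted p = 0.0170 and 0.0101), both lost without control replicate 2 or 3 and the first also without siRNA.1 replicate 1 or 2 (adjusted p up to 0.114), and both with limma on log2 FPKM (0.0671 to 0.0693). ZFP36L1, which destabilises AU-rich mRNAs, rose by 0.22 and 0.27, and its relative ZFP36L2 fell by 0.33 and 0.14 on the log2 scale, the second lost without control replicate 3 (edgeR adjusted p = 0.233) or siRNA.2 replicate 1 (0.0910) and with no filter on low values (0.0529).

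The genes outside the lists whose profiles were nearest to the 3 that changed most were found among 11868 named genes averaging 1 FPKM or more, by the root mean square difference of log2 CPM over the 9 libraries, each set to its control mean. For MYC these were STC2, LAP3 and SAMHD1, at a distance of 0.0536 to 0.0586. For EGR1 they were ABHD2, PRKCA and SLC6A6, at 0.0913 to 0.10. For FOS, C1R, MARCHF4 and CEACAM1 were nearest, at 0.270 to 0.310.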

How the data were processed

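RNA-seq libraries of TE13 cells (3 per siRNA) were grouped by their labels, and the study calls them experimental repeats; no source used here says whether they came from separate cultures, so p-values measure the spread between these libraries. The authors captured poly(A)+ RNA, aligned the reads with STAR to GRCh38 and used featureCounts; versions, annotation release and strandedness are not given in the sources used here. For each gene the authors deposited its count, not normalized, and its FPKM, the count scaled to exonic length and to the library's total. Libraries of 1 group differed beyond sampling noise (chi-square per degree of freedom 2.76 to 4.62).

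Counts were tested with edgeR 4.0.16 (TMM factors 0.989 to 1.02, R 4.3.3) over 21395 genes averaging 0.1 FPKM or more. Standard errors were taken as the size of the log2 fold change over the root of F. limma 3.58.1, DESeq2 1.42.0, other scalings and filters, a replicate block and each library left out served as alternatives. Data for siRNA.1 against control were also simulated with 21395 genes, all given the same dispersion (spread between libraries). Changes were placed only in genes with a higher mean count than that of FOS. Of these, edgeR recovered 78% of genes changed 1.25-fold and 98% of those changed 1.5-fold. Recovery at lower counts was not simulated. Promoters came from RefSeq, transcripts from GENCODE 44, where the 10 genes have the deposited coordinates. FOSL1, IER3 and MYC were not in the promoter table.

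Members, lists and tests were chosen with earlier results of these data known. Named genes are the 10 genes, in each list and direction the 2 with the largest mean change among those called the same way with both siRNAs, any called in opposite directions (there were 0), and the 3 nearest profiles of each of the 3 most changed members.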

Additional observations from a re-analysis of the deposited data

Results flagged for a closer look

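The effects of the siRNAs against the same control libraries differed for 4 of the 10 genes by edgeR's test of the difference itself (siRNA.2 minus siRNA.1, log2, adjusted p under 0.05): FOSL1 by 0.32, EGR1 by 0.36, IER3 by 0.17 and FOSL2 by -0.17. Of the related genes named, DUSP1 differed by -0.76, DUSP4 by -0.31, ATF3 by -0.30, IL6 by -0.30, ODC1 by -0.42 and BRAF by -0.22, all rising less under siRNA.2. ARC differed by 0.54 and MGA by 0.17, rising more under siRNA.2, and MCL1 by 0.38, PLAU by 0.18 and ZFP36L2 by 0.18, falling less under siRNA.2. Leaving out single libraries ended some of these calls: MGA without replicate 1 or 3 of either siRNA (adjusted p up to 0.381), BRAF without siRNA.1 replicate 2 or 3 or siRNA.2 replicate 3 (up to 0.364), ARC without siRNA.1 replicate 3 or siRNA.2 replicate 2 (up to 0.201), ZFP36L2 without replicate 3 of either siRNA (up to 0.0612), and IER3, FOSL2 and EGR1 as described above. The differences of FOSL1, DUSP1, DUSP4, MCL1 and ODC1 had an adjusted p under 0.05 in all 22 other fits, and ZFP36L2 in all but the 2 without a library just named. The differences of ATF3, IL6, PLAU, ARC, BRAF, MGA, IER3 and FOSL2 lost it in limma on log2 FPKM at each of 3 pseudocounts, and EGR1 at 2 of them. PLAU and BRAF lost it in DESeq2 too (adjusted p = 0.134 and 0.0631), ARC and BRAF in limma-voom (0.0885 and 0.0897), and MGA in 12 of 13 other settings, DESeq2 (0.187) and the replicate block (0.0820) among them, as IER3 did in 11.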

How the results depend on the processing

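Against control siRNA, the 10 genes kept their direction in all 440 recomputed values and their call in 419; the 21 lost calls were those of JUN with either siRNA and of JUND under siRNA.1. A further requirement of a change of 1 or more on the log2 scale left 1, 1 and 0 of the 10 genes (siRNA.1, siRNA.2, between siRNAs) and 10, 15 and 2 of the related genes. Between the siRNAs, limma on log2(FPKM + 0.1), + 1 and + 0.01 called 1, 1 and 2 of the 10 genes in place of 4, and 29 related genes at each pseudocount in place of 49. With each library left out in turn, 8 to 10 of the 10 genes were called under siRNA.1, 9 to 10 under siRNA.2 and 2 to 4 between the siRNAs, the lowest without siRNA.1 replicate 3, siRNA.2 replicate 2 or siRNA.2 replicate 3. FOSL1's share of the FOS family rose by 7.13 and 13.7 percentage points as a share of raw counts, which are not per length, in place of 2.98 and 5.80. Same-numbered libraries showed no shared deviation (correlations -0.146 to 0.069), so the main fit did not pair them. These correlations cannot tell whether they were prepared together. A replicate block called 10, 10 and 3 of the 10 genes, losing IER3 between the siRNAs, and 103, 107 and 46 related genes. Depth limits FOS, with 16 to 102 counts per library, and 8 of the 170 related genes were too low to test.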
